A study of Rattus norvegicus with 6 samples.

Results

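The potassium channel genes described here are those whose array row carries a single gene symbol beginning with Kcn, 83 genes of the 14506 genes on the arrays that could be named in this way. The 83 genes were measured by 85 rows, and for Kcnip1 and Kcnip2, which had more than one row, the row with the highest mean was used; their other row gave nearly the same change (0.025 and 0.18). Of the 95 protein-coding Kcn genes in the RefSeq table of the rat assembly GRCr8, 12 had no such row and were not analysed here. The samples were primary motor neuron cultures made from rat embryos at embryonic day 13.5 and grown for 2 days in vitro. In one group the cultures received 1 microM camptothecin (cpt in the labels), which traps topoisomerase 1 on DNA, and in the other an equal volume of the solvent DMSO. Both groups were exposed for 2 h at 37C, and each had 3 arrays. The labels name no strain. They present the 3 samples of a group as biological replicates but do not describe separate preparations, so p-values reflect only the variation among these samples, which may be technical.

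Potassium channels let potassium ions leave or enter the cell down their electrochemical gradient, and so set the resting potential, shape the action potential and limit firing. The Kcn genes encode voltage-gated channels with their silent and accessory subunits, inward rectifiers, tandem-pore leak channels, and channels opened by calcium or sodium. In spinal motor neurons the leak channels TASK, the G protein-gated inward rectifiers, the small-conductance calcium-activated channels that carry the afterhyperpolarisation and the M-current channels of the Kv7 family are known for their control of excitability.

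Every value below is a deposited log2 expression value, or a difference of such values, camptothecin minus DMSO, with limma's standard error (SE) and n = 3 arrays per group. A gene is said to have risen or fallen only where limma's Benjamini-Hochberg adjusted p, taken over all 29214 rows of the arrays, was under 0.05. Array medians on the log2 scale lay between 6.31 and 6.33 with camptothecin and between 6.22 and 6.28 with DMSO, so that the camptothecin arrays were slightly higher. A row was called dim where its mean lay below 6.28, the median over all rows. By that measure 33 of the 83 genes were dim. The within-group SD of the 83 genes, pooled over both groups, ran from 0.024 to 0.26 with a median of 0.12. The signal of a row depends on its probes, so a higher signal was not read as more RNA of one gene than of another; signals served only to mark dim rows and to choose which genes to name.

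After 2 h of camptothecin 15 of the 83 potassium channel genes had fallen and 4 had risen, and 64 did not pass the test. The fallen share was 18.1%, where 9.35% of all 14506 genes fell, and the risen share was 4.82%, where 11.3% of all genes rose. The risen share of all genes moved with single arrays and with the scale. With 1 array left out it was 4.58% to 9.29%, lowest without DMSO replicate 3 (4.58%) or DMSO replicate 2 (4.6%), where 3 of the 83 genes rose. It was 6.91% without camptothecin replicate 2, 6.16% without camptothecin replicate 3 and 5.77% without DMSO replicate 1. With each array centred on its median 6.29% of all genes were higher and 11.1% lower, beside 3 and 15 of the 83. The difference from all genes in rises was thus small under some of these settings. The fallen share of all genes was 6.32% to 8.4% with 1 array left out, where 11 to 16 of the 83 fell. Kcnk9 and Kcnk10, which encode the leak channels TASK-3 and TREK-2, the channel subunit gene Kcnmb2 and the EAG channel gene Kcnh1 fell by 2-fold or more, which makes 4 of 83 genes, beside 1.05% of all genes. No potassium channel gene rose by that much (0 of 83, beside 0.303% of all genes), and the largest rise, that of Kcnf1, was 1.45-fold. Kcnh1 lay at the 2-fold limit (2.01-fold). Its log2 change was -0.92 without camptothecin replicate 3 and -0.91 without DMSO replicate 1, both under 2-fold. The arrays of the groups did not overlap for 19 genes with camptothecin lower, 22.9% of the 83 beside 15.5% of all genes, and for 10 genes with camptothecin higher, 12% beside 27.1%. The median change over the 83 genes was 0.021, and over all genes 0.060.

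**Figure D1:**
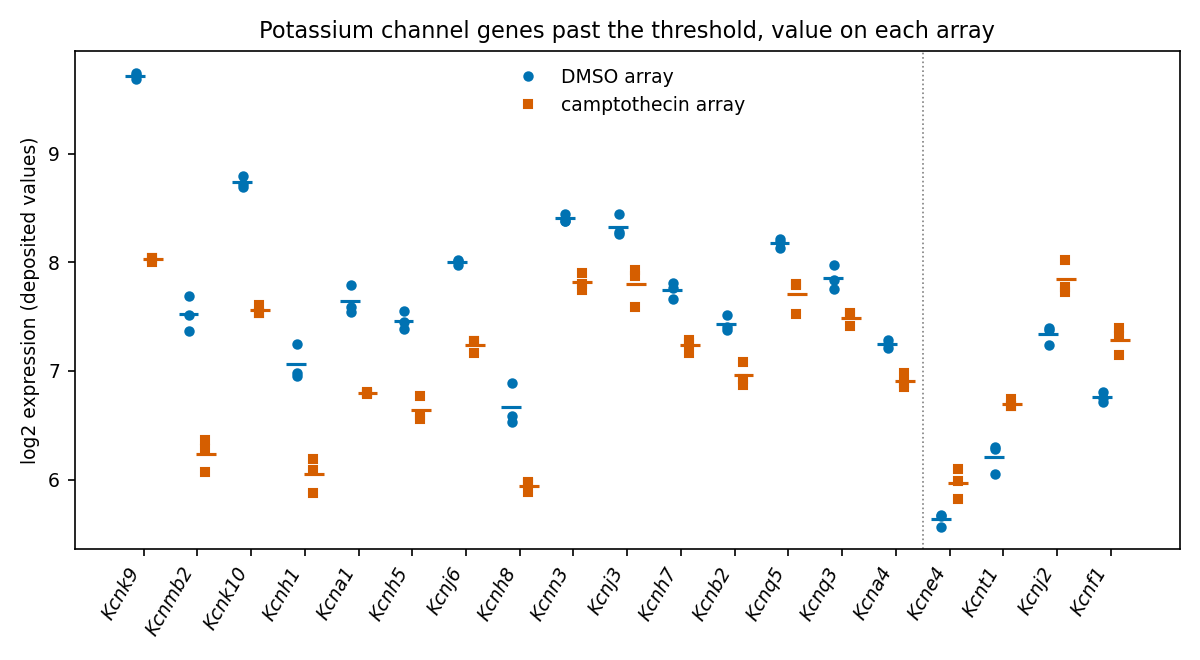
Deposited log2 expression (vertical axis) of the 19 potassium channel genes past the threshold, with 1 point per array, 3 DMSO and 3 camptothecin arrays per gene, and a short line at each group mean. In all 19 genes the groups do not overlap; the 15 genes left of the dotted line are lower with camptothecin and the 4 right of it higher.

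The tandem-pore (K2P) channels, which carry the background leak that sets the resting potential, held the largest fall of the family. Kcnk9 read 7.999, 8.040 and 8.041 with camptothecin and 9.691, 9.738 and 9.723 with DMSO. The groups lay far apart, with an SD of 0.024 within each. Kcnk9 fell 3.23-fold (log2 change -1.69, SE 0.06, adjusted p = 1.22e-05). Kcnk10, a channel opened by stretch and lipids, read 7.54, 7.61 and 7.54 with camptothecin against 8.72, 8.80 and 8.70 with DMSO. All camptothecin arrays were again below all DMSO arrays, and the fall was 2.26-fold (-1.18, SE 0.07, adjusted p = 9.28e-05). Of the 11 measured K2P genes 2 fell (18.2%) and 0 rose, beside 9.35% and 11.3% of all genes. The other 9 did not pass, with changes from -0.15 to 0.14. Among these was Kcnk3, which encodes TASK-1, the channel most like TASK-3 (-0.15, SE 0.12), and Kcnk2, which encodes TREK-1, the relative of TREK-2 (-0.05, SE 0.11, dim).

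The Kcnh genes encode the EAG, ERG and ELK channels, voltage-gated channels with a cyclic nucleotide-binding-like domain. Of 8 measured members 4 fell (50%) and 0 rose, beside 9.35% and 11.3% of all genes. Kcnh1, an EAG channel gene, read 6.09, 6.19 and 5.88 with camptothecin and 7.25, 6.98 and 6.95 with DMSO. Its groups did not overlap, and it fell 2.01-fold (-1.01, SE 0.11, adjusted p = 0.00181). Kcnh5, the other EAG gene, read 6.56, 6.77 and 6.59 against 7.45, 7.39 and 7.55 with DMSO. The lowest DMSO array stood above the highest camptothecin array, and the change was -0.82 (SE 0.09, adjusted p = 0.00122). Kcnh8, an ELK channel gene, read 5.98, 5.97 and 5.89 against 6.89, 6.59 and 6.53 with DMSO. Its DMSO replicate 1 was the highest array, the groups were apart, and the change was -0.73 (SE 0.11, adjusted p = 0.00483). Kcnh7, an ERG channel gene, fell from 7.67 to 7.81 on the DMSO arrays to 7.16 to 7.29 with camptothecin (-0.51, SE 0.07, adjusted p = 0.00455). Kcnh2, Kcnh3, Kcnh4 and Kcnh6 did not pass, with changes from 0.01 to 0.30, and 3 of those 4 were dim.

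The 250 bases upstream of the annotated starts of these 4 Kcnh genes are shown. The same window of Kcnj2, a gene that rose, is given for comparison. The genomic spans of the Kcnh genes, which also differed, are given further below. The sequences are from RefSeq, assembly GRCr8, read 5′ to 3′ on the strand of the gene, with capitals at each match to the GC box letters GGGCGG on either strand.
Kcnh1 promoter (chr13:106252966-106253215, plus strand): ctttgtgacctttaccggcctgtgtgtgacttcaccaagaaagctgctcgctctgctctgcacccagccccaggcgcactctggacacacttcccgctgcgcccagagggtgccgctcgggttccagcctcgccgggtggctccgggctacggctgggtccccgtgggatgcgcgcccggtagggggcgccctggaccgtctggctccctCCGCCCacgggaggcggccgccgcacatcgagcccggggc
Kcnh5 promoter (chr6:99643857-99644106, minus strand): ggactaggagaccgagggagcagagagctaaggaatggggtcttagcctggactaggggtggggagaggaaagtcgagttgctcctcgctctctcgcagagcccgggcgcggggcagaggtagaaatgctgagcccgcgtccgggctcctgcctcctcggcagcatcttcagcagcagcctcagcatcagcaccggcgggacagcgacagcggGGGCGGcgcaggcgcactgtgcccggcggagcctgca
Kcnh7 promoter (chr3:68230672-68230921, minus strand): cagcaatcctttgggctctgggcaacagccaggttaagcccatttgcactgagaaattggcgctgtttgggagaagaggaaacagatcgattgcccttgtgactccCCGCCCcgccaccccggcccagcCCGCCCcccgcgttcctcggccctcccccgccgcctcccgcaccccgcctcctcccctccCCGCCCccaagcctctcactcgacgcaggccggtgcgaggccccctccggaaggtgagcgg
Kcnh8 promoter (chr9:5742433-5742682, plus strand): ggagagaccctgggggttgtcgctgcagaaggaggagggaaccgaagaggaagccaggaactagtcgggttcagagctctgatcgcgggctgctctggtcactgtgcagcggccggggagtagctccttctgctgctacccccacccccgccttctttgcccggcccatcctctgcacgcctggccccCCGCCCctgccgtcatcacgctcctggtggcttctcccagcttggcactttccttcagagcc
Kcnj2 promoter (chr10:96559975-96560224, plus strand): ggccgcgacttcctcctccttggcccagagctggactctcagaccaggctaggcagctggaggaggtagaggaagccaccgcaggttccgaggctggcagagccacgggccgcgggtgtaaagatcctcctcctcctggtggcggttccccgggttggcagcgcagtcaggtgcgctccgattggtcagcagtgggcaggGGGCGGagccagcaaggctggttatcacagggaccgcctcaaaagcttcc
All 4 windows of the fallen Kcnh genes held the GC box letters, as did 1 of 2 windows of Kcnh genes that did not pass, and the Kcnj2 window held them too. RefSeq windows were at hand for 58 of the 83 genes. The letters GGGCGG stood in 28 of those 58 (48.3%), and in 30.5% of all 33469 windows of that length. They were in 5 of 9 windows of fallen genes, 3 of 4 of risen genes and 20 of 45 of the rest. TATAAA was found in 2 of the 58 windows and in 12.9% of all windows, and in none of the 13 windows of fallen or risen genes. The cyclic AMP response letters TGACGTCA were in 0 of 58 and 1.59% of all, and the AP-1 letters TGACTCA in 1 of 58 and 4.05% of all, on either strand. The windows held a median of 11 CG dinucleotides, where all windows held 5. The 58 windows were 1 per gene. The set of all windows was limited neither to 1 per gene nor to genes on the arrays, so the compared sets are unlike. A match is a description of the letters only.

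Among the pore subunits of the classical voltage-gated channels, the Kv1 genes Kcna1 and Kcna4 fell, 2 of 8 measured (25%), and 0 rose. Of all genes 9.35% fell and 11.3% rose. Kcna1, which encodes the low-threshold axonal channel Kv1.1, read 6.81, 6.79 and 6.78 with camptothecin and 7.54, 7.79 and 7.59 with DMSO. The camptothecin arrays were almost equal, all lay below the DMSO arrays, and the fall was 1.8-fold (-0.85, SE 0.08, adjusted p = 0.000892). Kcna4, an A-type channel gene, was 6.86 to 6.98 with camptothecin and 7.21 to 7.28 with DMSO (-0.34, SE 0.07, adjusted p = 0.0163). Kcna2 and Kcna3, whose products join Kv1.1 in mixed channels, did not pass, at 0.08 (SE 0.10) and -0.16 (SE 0.08). In GRCr8 order Kcna1 sits between Kcna5 and Kcna6, which changed by 0.18 and -0.18 without passing. Kcnb2, the only Kv2 gene measured, encodes a delayed rectifier and fell from 7.37 to 7.52 with DMSO to 6.87 to 7.08 (-0.47, SE 0.08, adjusted p = 0.00981).

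Of the Kv7 genes, which encode the M-current channels that muscarinic receptors close, Kcnq5 and Kcnq3 fell, 2 of 3 measured. Thus 66.7% fell and 0 rose, beside 9.35% and 11.3% of all genes. Kcnq5 was 7.53 to 7.80 with camptothecin and 8.13 to 8.22 with DMSO (-0.47, SE 0.09, adjusted p = 0.0147). Kcnq3 was 7.41 to 7.53 against 7.75 to 7.98 in DMSO (-0.37, SE 0.08, adjusted p = 0.0248). The third, Kcnq1, better known from heart and epithelia, was dim and did not pass (-0.02, SE 0.14).

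The Kv3 and Kv4 genes held 0 calls in 5 measured members, where 9.35% of all genes fell and 11.3% rose. Kcnd2, the Kv4.2 gene of somatodendritic A-type current, read 10.14, 10.24 and 10.13 with camptothecin and 10.14, 10.06 and 10.05 with DMSO. These arrays overlapped, and the change of 0.08 had a 95% interval from -0.08 to 0.24 (adjusted p = 0.458). Kcnd3, its relative, changed by 0.15 (interval 0.0053 to 0.29, adjusted p = 0.144). Kcnc1, a Kv3 gene of fast-spiking neurons, changed by 0.03 (SE 0.11), and Kcnc2, which was dim, by -0.27 (SE 0.09, adjusted p = 0.09).

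One of the 10 silent Kv genes, whose products form no channel alone but modify Kv2 channels, rose, and 0 fell. The risen share was 10%, near the 11.3% of all genes, of which 9.35% fell. Kcnf1 read 7.15, 7.39 and 7.32 with camptothecin and 6.81, 6.72 and 6.75 with DMSO. Every camptothecin array was above every DMSO array, and the rise of 0.53 (SE 0.08, adjusted p = 0.00643) was the largest of the 83 genes. Of the 10 silent Kv genes 7 were dim. Kcns1, with a change of 0.22 (SE 0.07, adjusted p = 0.062), lay just outside the threshold.

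Among the 15 inward rectifier genes, which pass potassium more readily into the cell than out, 2 fell and 1 rose. These were 13.3% and 6.67%, beside 9.35% and 11.3% of all genes. Kcnj6, the GIRK2 gene of G protein-gated channels, read 7.17, 7.28 and 7.28 with camptothecin and 8.01, 7.98 and 8.02 with DMSO. The groups were well apart (-0.76, SE 0.07, adjusted p = 0.000543). Kcnj3, the gene of its partner subunit GIRK1, was 7.58 to 7.93 with camptothecin and 8.26 to 8.44 with DMSO (-0.53, SE 0.11, adjusted p = 0.0181). The other GIRK genes Kcnj9 (0.18, SE 0.13) and Kcnj5 (-0.01, SE 0.11) were dim and did not pass. Kcnj2, which encodes the strong rectifier Kir2.1, read 7.73, 8.03 and 7.77 with camptothecin and 7.24, 7.40 and 7.38 with DMSO. It rose 1.42-fold (0.50, SE 0.10, adjusted p = 0.0149), with no overlap of the groups. Its neighbour in GRCr8, Kcnj16, was dim and changed by -0.05 (SE 0.17), and the neighbour of Kcnj6, Kcnj15, also dim, by 0.12 (SE 0.09).

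The calcium- and sodium-activated group had 10 measured genes, of which 2 fell and 1 rose. These were 20% and 10%, beside 9.35% and 11.3% of all genes. Kcnmb2, an accessory beta subunit that makes the large-conductance BK channel inactivate, read 6.37, 6.28 and 6.07 with camptothecin and 7.69, 7.51 and 7.37 with DMSO. Its groups were more than a unit apart in their means, and it fell 2.44-fold (-1.29, SE 0.11, adjusted p = 0.000591). The gene of the BK pore itself, Kcnma1, read 9.01, 8.82 and 8.79 against 8.84, 8.92 and 8.80 with DMSO. Those arrays overlapped (0.02, 95% interval -0.18 to 0.22), as did those of the beta subunit gene Kcnmb4 (0.00, interval -0.17 to 0.17). Kcnmb1, another beta subunit gene, just missed the threshold (0.36, SE 0.10, adjusted p = 0.0539) although its groups did not overlap, and it passed in 4 of 15 alternatives. Kcnn3, a small-conductance SK channel gene, fell from 8.38 to 8.45 with DMSO to 7.75 to 7.90 (-0.59, SE 0.07, adjusted p = 0.00214), and its relative Kcnn1 changed by 0.00 (SE 0.07). Kcnt1, a sodium-activated channel gene, read 6.68, 6.74 and 6.67 with camptothecin and 6.30, 6.28 and 6.05 with DMSO. It rose 1.4-fold (0.49, SE 0.09, adjusted p = 0.0097), and its relative Kcnt2 changed by 0.03 (SE 0.08).

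Of 12 accessory subunits of Kv channels (Kcnab, Kcne and Kcnip) 1 rose and 0 fell. The risen share was 8.33%, beside 11.3% of all genes, of which 9.35% fell. Kcne4, a single-span subunit that dampens Kv1 and Kv7.1 currents, read 5.99, 5.83 and 6.10 with camptothecin and 5.67, 5.57 and 5.66 with DMSO (0.34, SE 0.09, adjusted p = 0.0396). It was the only dim gene of the 19 past the threshold. Kcnip1, a calcium-binding partner of Kv4 channels, read 10.39, 10.40 and 10.40 against 10.37, 10.43 and 10.30 with DMSO. Its groups overlapped (0.03, 95% interval -0.13 to 0.18).

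**Figure D2:**
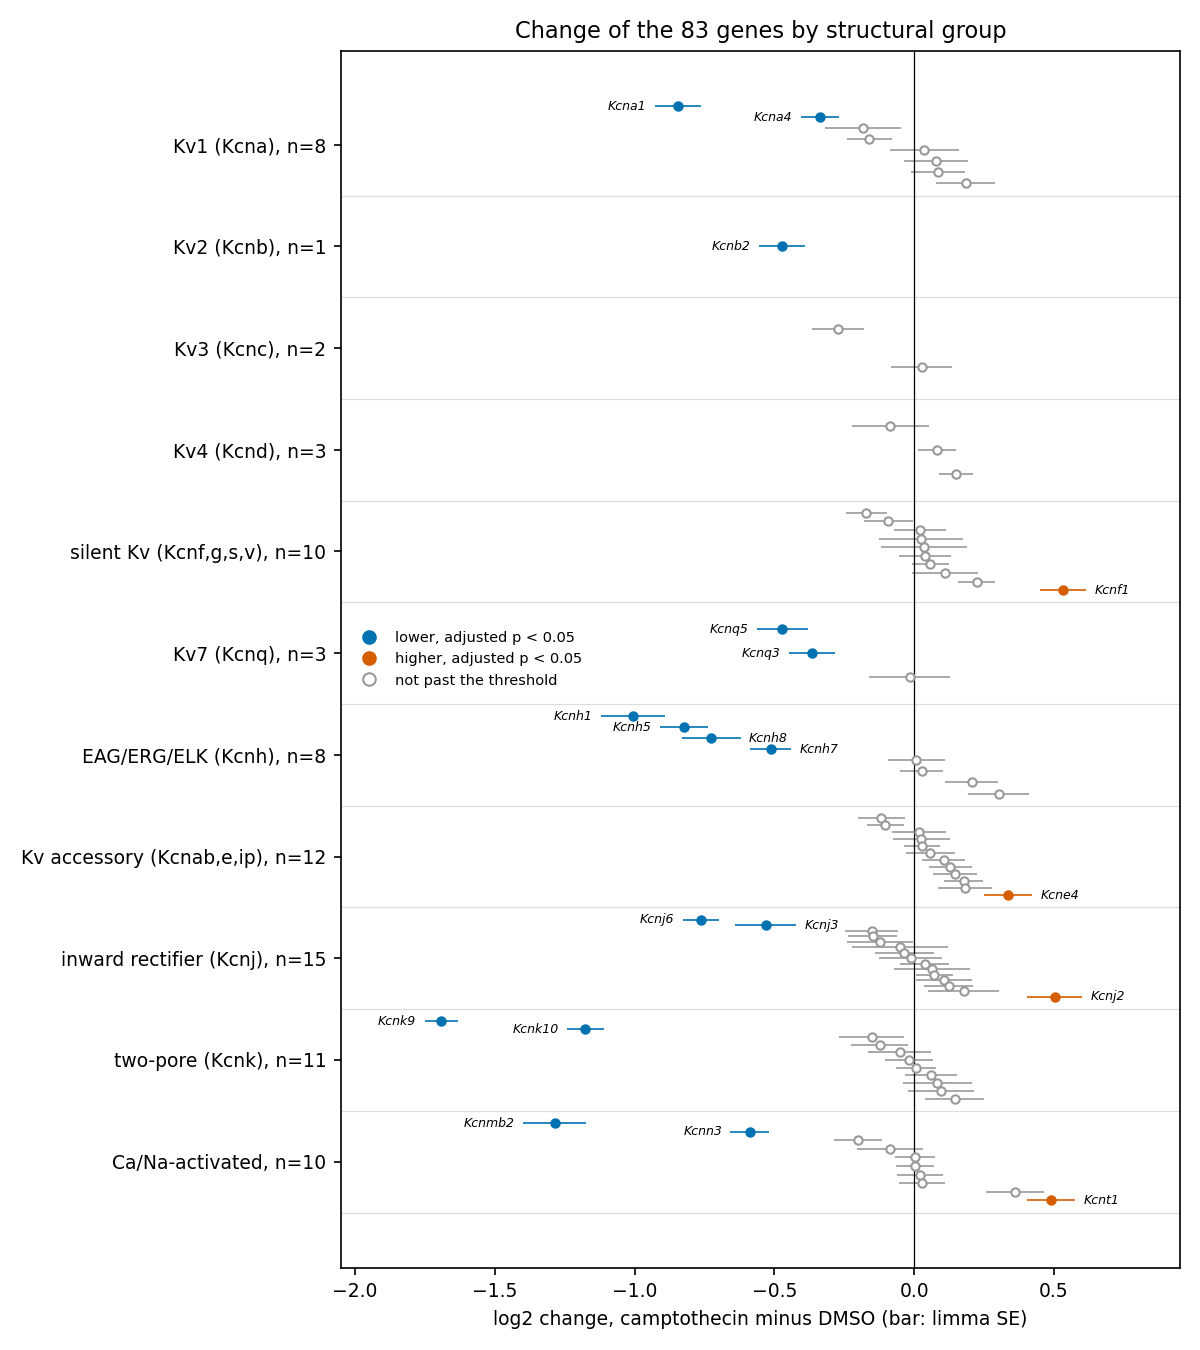
Log2 change, camptothecin minus DMSO (horizontal axis, bars are limma's SE, 3 arrays per group), of each of the 83 genes, arranged by structural group (vertical axis, with the number of measured genes). Filled points passed the threshold; the largest falls are Kcnk9, Kcnmb2, Kcnk10 and Kcnh1, and 4 of 8 Kcnh genes, 2 of 3 Kv7 genes and the single Kv2 gene are filled points left of 0.

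The annotated genomic span of each gene in GRCr8, its length from start to end with introns, was set beside its change, since spans run from a fraction of a kb to 1151 kb in this family. A span of at least 100 kb was annotated for 23 genes, of which 12 fell and 0 rose, while of the 60 shorter genes 3 fell and 4 rose. Among all genes, 34.9% of those of 100 kb or more fell and 6.13% of the shorter ones, beside 52.2% and 5% of the potassium channel genes. The risen shares of all genes were 1.84% of the long and 12.5% of the shorter ones, beside 0 of 23 and 6.67% of the potassium channel genes, so the absence of rises among the long ones was near the share of all long genes. Long potassium channel genes were also seldom dim (3 of 23, against 30 of 60), and among genes that were not dim 12 of 20 long and 3 of 30 short ones fell (60% and 10%, beside 41.6% and 10.2% of all genes). Across the 83 genes Spearman's rho of span and change was -0.37, and from -0.45 to -0.23 for single camptothecin arrays. Over 14480 genes it was -0.31. The genes share the same 6 arrays and are not replicates.

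Longer genes tended to have lower changes (rho -0.37), but the order of the spans was not the order of the changes. The 12 long genes that fell spanned from 136 kb (Kcnk10) to 566 kb (Kcnq5). The 3 short genes that fell were Kcnk9 (45.7 kb), which had the largest fall of all, Kcna1 (9.67 kb) and Kcna4 (7.46 kb). At the other end, 11 of the 23 long genes did not pass, 8 of them not dim. Kcnip4, at 1151 kb the longest of the family, changed by -0.10 (95% interval -0.26 to 0.06), and Kcnma1 (706 kb), Kcnd2 (502 kb) and Kcnip1 (369 kb) had the values given above. Kcnab1 (467 kb), which encodes a Kv beta subunit, changed by -0.12 (SE 0.08), and Kcnt2 (395 kb) and Kcnd3 (217 kb) did not pass either. The 4 risen genes spanned from 2.68 kb (Kcnf1) to 55.8 kb (Kcnt1). Among the Kcnh genes the 4 that fell spanned from 293 kb (Kcnh5) to 493 kb (Kcnh7). The 4 Kcnh genes that did not pass spanned from 18.2 kb (Kcnh3) to 32.1 kb (Kcnh2). A part of span in these falls was not tested.

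**Figure D3:**
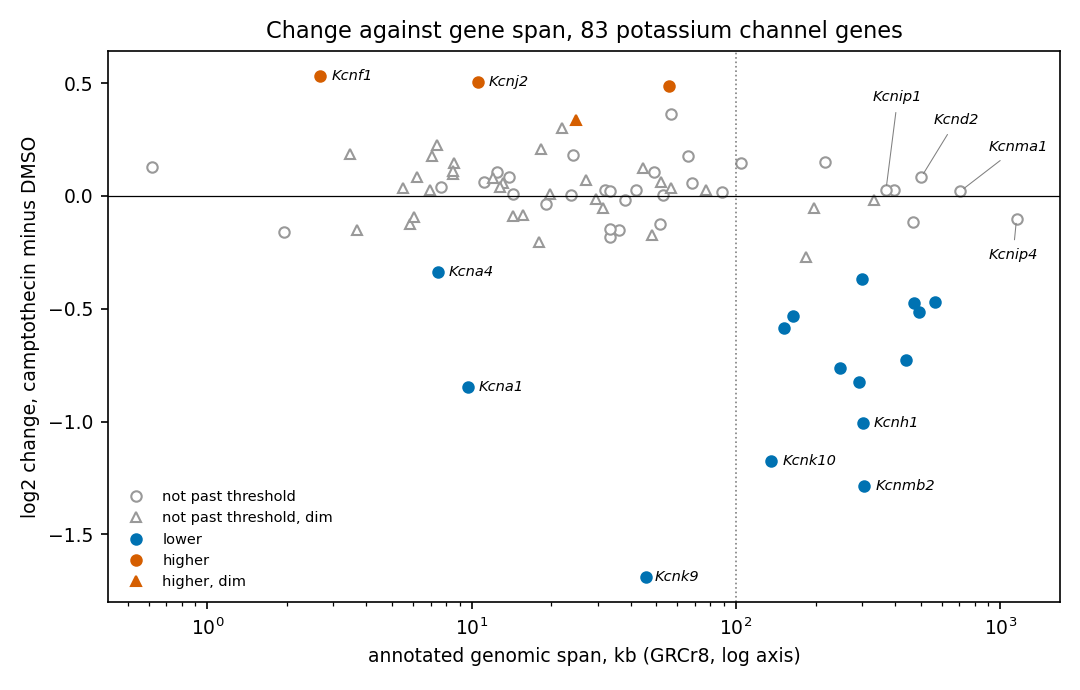
Log2 change, camptothecin minus DMSO (vertical axis), against annotated genomic span in kb on a log axis, with 1 point for each of the 83 genes, triangles for dim genes and a dotted line at 100 kb. To the right of the line 12 of 23 genes are lower past the threshold, while Kcnip1, Kcnd2, Kcnma1 and Kcnip4 lie near 0; Kcnk9, Kcna1 and Kcna4 are lower with short spans.

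Genes that work with potassium channels under other names were followed as a list of 39, of which 31 were measured, and 7 fell and 1 rose. Of 21 auxiliary subunits and anchors 4 fell. Dlg1 (-1.03, SE 0.08, adjusted p = 0.00041) and Dlg2 (-0.34, SE 0.06) encode scaffolds that cluster Kv1 and Kir channels, Lgi1 (-0.71, SE 0.07) a secreted protein of Kv1 complexes, and Amigo1 (-0.36, SE 0.09) a Kv2 subunit. The Kv4 subunit genes Dpp6 (0.06, SE 0.06) and Dpp10 (0.03, SE 0.08) did not pass, like the Kv4 pore genes. All 3 measured HCN genes, which encode the hyperpolarisation-activated cation channels, did not pass, with changes from -0.07 to 0.21. Of 7 pump and cotransporter genes, the sodium pump beta subunit genes Atp1b1 (-0.24, SE 0.06) and Atp1b3 (-0.34, SE 0.08) and the chloride importer gene Slc12a2 (-0.32, SE 0.07) fell, and Atp1b2 rose (0.36, SE 0.07). The share that fell was 22.6% of the 31 genes, beside the 9.35% of all genes, and the share that rose 3.23%, beside 11.3%. Dlg1 and Lgi1 kept their call in every alternative run. Dlg2 lost it without DMSO replicate 3 and Atp1b2 without DMSO replicate 1 or with ribosomal centring, and Amigo1, Atp1b1, Atp1b3 and Slc12a2 each lost it without any of 4 or 5 of the 6 arrays, all 3 DMSO arrays among them.

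Single arrays and the scale of the arrays moved some calls. Of the 19 calls, 12 (11 falls and the rise of Kcnf1) held in every alternative run. The calls of Kcnj3 and Kcnq5 were lost without DMSO replicate 1 or 3 (adjusted p = 0.0507 to 0.0643), those of Kcna4 and Kcnq3 without either of these or camptothecin replicate 3 (adjusted p = 0.0565 to 0.079), and that of Kcnj2 without DMSO replicate 1 (adjusted p = 0.0561). Kcne4 lost its call without any array other than camptothecin replicate 2 (adjusted p = 0.0899 to 0.129), and in 10 of 14 alternatives in all. Setting the ribosomal protein genes to a common mean on every array lowers every change by the same amount, -0.26. Under it 32 of the 83 genes were lower, beside 31.4% of all genes, and 1, Kcnf1, was higher, beside 2.39%. As reported 15 of the 83 (18.1%) were lower, beside 9.35% of all genes. The count of falls thus grew less, in proportion, than the share of all genes, and the contrast was weaker on that scale. Kcnip1 and Kcnip4, among the long genes that had not passed, were lower past the threshold there (adjusted p = 0.0464 and 0.0146). The calls of Kcnj2, Kcnt1 and Kcne4 were lost (adjusted p = 0.0641, 0.0754 and 0.564).

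**Figure D4:**
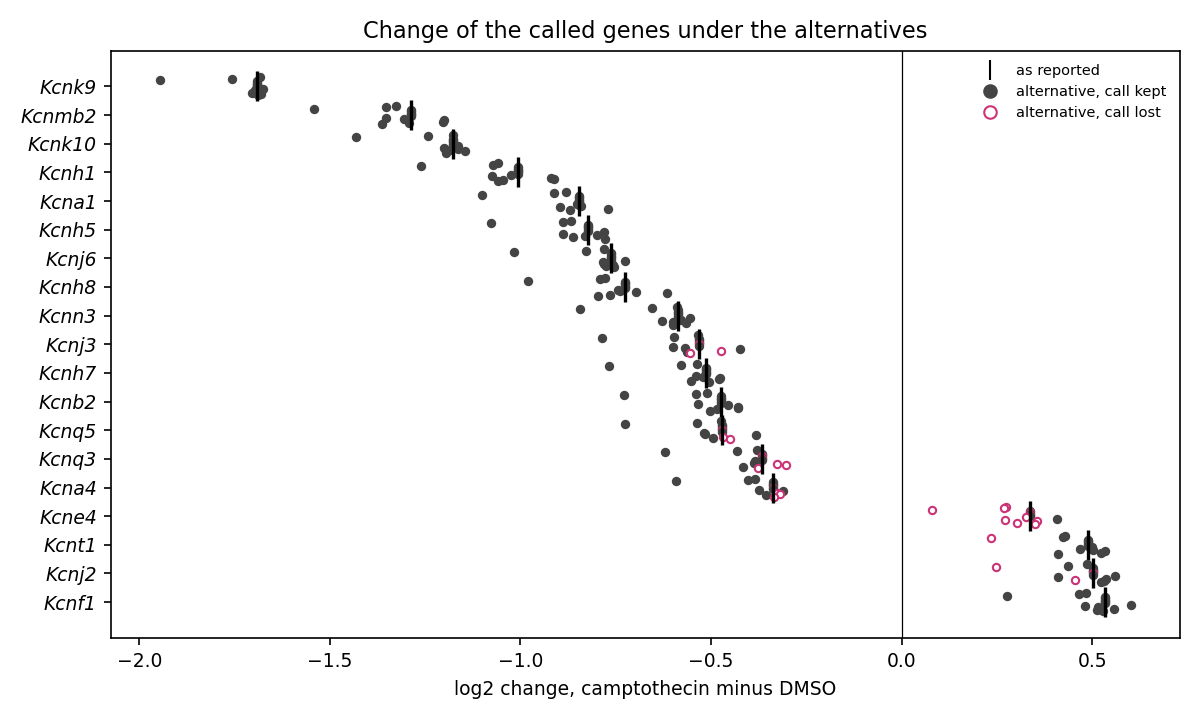
Log2 change, camptothecin minus DMSO (horizontal axis), of the 19 called genes (vertical axis) as reported (bar) and under each alternative (points), open where the call was lost. The falls from Kcnk9 to Kcnn3 keep their call throughout, the leftmost point in each row is the ribosomal centring, and Kcne4 has the most open points.

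Markers of the labelled cells were partly dim. Of 12 motor neuron markers 10 were measured and 5 of those were dim, among them Isl1, Isl2 and the acetylcholine transporter gene Slc18a3, and the list's mean level was 6.92 to 7.10 with camptothecin and 6.95 to 6.98 with DMSO. Inhibitory interneuron markers were measured for 6 of 6 genes, 0 dim, and 4 fell. That was 66.7% of the list, beside 9.35% of all genes and 14.8% of all genes that were not dim. Their mean level was 8.18 to 8.33 with camptothecin and 8.73 to 8.88 with DMSO. Slc6a5, Gad2, Gad1 and Pax2 were the members that fell. Slc32a1, the vesicular transporter gene of inhibitory neurons, changed by 0.23 with every camptothecin array above every DMSO array (adjusted p = 0.0759), and Lhx1 by 0.10 with overlap. The list's part in the falls of potassium channel genes was not tested. In such bulk samples fewer cells of a type and less RNA per cell cannot be told apart. Mean levels also lay apart for 3 oligodendrocyte and Schwann markers (6.79 to 6.94 with camptothecin, 6.99 to 7.14 with DMSO), 6 microglia and blood markers (6.19 to 6.33 and 6.09 to 6.17) and 2 sensory neuron markers (6.72 to 6.91 and 6.64 to 6.71). They overlapped for 8 progenitor and astroglial (7.93 to 8.07 and 7.87 to 7.97), 5 fibroblast (5.72 to 6.10 and 5.77 to 5.88), 4 endothelial (5.39 to 5.53 and 5.45 to 5.48) and 4 muscle markers (6.07 to 6.19 and 5.99 to 6.12). In the microglia and blood list and the sensory neuron list no gene passed. Their groups were only narrowly apart (6.19 against 6.17 and 6.72 against 6.71), where the median change of all rows was 0.066. Among the 10 motor neuron markers 3 rose (Nefh, Nefm and Prph) and 1 fell (Chodl). These were 30% and 10% of the list, beside 11.3% and 9.35% of all genes. Isl1, Isl2, Lhx3, Slc18a3, Slc5a7 and Nefl did not pass. In the lists of other cell types apart from the interneurons there were 1 fall (Mbp, myelin basic protein) and 1 rise (Acta1, muscle actin).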

How the data were processed

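The RNA of 6 rat motor neuron cultures was hybridised to Affymetrix Rat Gene 1.0 ST arrays, 3 after camptothecin and 3 after DMSO. The deposited values are log2 expression values, 1 per row and array, made with RMA and oligo per the submitters' processing notes. For neither tool is a version given in the sources used here, nor is the probe annotation or genome build. Values were used as deposited. Of 29214 rows 15310 had 1 symbol in the platform annotation, giving 14506 genes by the row with the highest mean. RefSeq tables of GRCr8 gave spans for all 83 genes, by gene identifier, and promoter sequences. The array's own build is unknown, so GRCr8 coordinates stand only beside printed sequences.

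Groups were compared in limma 3.58.1 under R 4.3.3 (lmFit, then eBayes, two-sided), and p-values were adjusted by Benjamini-Hochberg over all rows; 95% intervals come from the same fit and are not adjusted. The number of arrays limits the precision. Genes named are all those past the threshold, the highest-mean member of each structural group without a call, and the 3 genes with the highest means; the 8 largest falls and all rises have the value of every array. Kcnmb1, Kcns1 and other genes that did not pass were named after their values were seen. The genes, lists and rules were chosen with earlier results of these data known. The alternatives were quantile normalization again, centring on the array median or on 249 ribosomal protein rows, leaving out dim rows, only rows with 1 symbol, eBayes with trend and robust, a block for the replicate number, a threshold of 0.01, the mean over a gene's rows, and leaving out each array.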

Additional observations from a re-analysis of the deposited data

How the results depend on the processing

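Of the potassium channel genes 4 rose and 15 fell as reported. With ribosomal centring 1 was higher and 32 lower, and at a threshold of 0.01 the counts were 2 and 11. With 1 array left out 2 to 4 rose and 11 to 16 fell. The other alternatives gave 3 to 6 higher and 14 to 15 lower. Of all genes 4.58% to 9.29% rose with 1 array left out. With the threshold at 0.01, 3.04% were higher and 5.61% lower, and with the replicate number as a block 6.15% and 7.16%. Leaving out dim rows left 8472 genes, 50 of them potassium channel genes. Of the 8472, 28.2% were higher and 18.6% lower, beside 4 and 15 of the 50. The median change of the 83 genes, 0.021 as reported, was -0.032 with quantile normalization again, -0.045 with arrays centred on their median and -0.23 after the ribosomal one. The median of all genes moved too, from 0.060 as reported to 0.013, -0.0061 and -0.195 under the same settings. Leaving out 1 array gave -0.011 to 0.029 for the 83 genes and 0.054 to 0.067 for all genes. Of the partner genes 1 rose and 7 fell as reported, beside 11.3% and 9.35% of all genes. The higher count was 2 with quantile normalization again (12.5% of all genes) and 3 with trend and robust (16%). It was 4 without dim rows (28.2% of the genes left) and with only 1-symbol rows (15.5%). It was 0 with ribosomal centring (2.39%) and at 0.01 (3.04%). The lower count was 13 with ribosomal centring (31.4% of all genes) and 2 at 0.01 (5.61%). Leaving out 1 array gave 0 to 2 higher and 2 to 6 lower, beside 4.58% to 9.29% and 6.32% to 8.4% of all genes. Leaving out dim or unnamed rows adjusts p-values over fewer tests; for the other shifts the cause was not tested.

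The replicate number is only a shared number: deviations of same-numbered arrays from their group means correlated at -0.08, 0.02 and 0.08. With it as a replicate block 3 potassium channel genes were higher and 14 lower, and 4 partner genes were lower. Of all genes 6.15% were higher and 7.16% lower there. The calls of Kcnq3 (adjusted p = 0.054), Kcne4 (0.0575), Amigo1, Atp1b1 and Slc12a2 were lost there.

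The sign of several changes near 0 that did not pass as reported turned. Kcnc1 was -0.039 with median centring, -0.23 with ribosomal centring, and between -0.079 and 0.10 when 1 array was dropped. Kcnip1 was -0.038, -0.23, and -0.0062 to 0.059 under the same settings, and Kcnma1 -0.045, -0.23, and -0.048 to 0.065. With ribosomal centring Kcnd2 was -0.17, Kcnd3 -0.11 and Kcns1 -0.032. No call changed its direction.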
